A study of Homo sapiens with 4 samples.

Results

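The wide H3K4me3 peaks of 2 leukemia cell lines were the peaks of 3000 bp or more in the deposited peak lists of RS4;11 and THP-1 cells. They were selected on width alone, counting both end bases, and each distinct interval counted once. RS4;11 cells had 3109 wide peaks among 24212 H3K4me3 peaks (12.8%, 95% Wilson interval 12.4 to 13.3%), and THP-1 cells had 2628 among 26523 (9.91%, 9.55 to 10.3%), together 5737 of 50735. Because width chose the members, widths in a peak's own line are given as a description with no test.

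WDR5 and H3K4me3 were profiled by chromatin immunoprecipitation and sequencing (ChIP-seq) in both lines, with 1 sample for each antibody and line and no replicates. RS4;11 is an acute lymphoblastic leukemia line of the B lineage and THP-1 an acute myeloid leukemia line of the monocytic lineage, and both carry a rearranged MLL gene; the labels of the RS4;11 H3K4me3 and THP-1 WDR5 samples give the other leukemia type, so the lines were taken by name. No treatment was given to either line: all 4 samples came from cells grown in RPMI1640 with 10% fetal bovine serum at 37°C in 5% CO2, with antibodies ab56919 for WDR5 and ab8580 for H3K4me3. The peak lists hold positions and gene annotations but no read counts, heights or p-values, so the depth of each sample is unknown. Each line is a single culture, and the intervals below cover counting over peaks or genes only; a difference between RS4;11 and THP-1 cannot be told apart from a difference between the single samples.

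H3K4me3, trimethylation of lysine 4 of histone H3, marks the nucleosomes around active and poised start sites of transcription. It is written by the SET1 and MLL complexes, of which WDR5 is a shared subunit, and these complexes reach unmethylated CpG islands partly through CXXC proteins. Wide H3K4me3 domains are known from many tissues at genes of cell identity and at highly transcribed genes, usually extending downstream of the start site into the first exon and intron.

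The sequences under the wide peaks ranged from dense CpG islands to stretches almost without CpG. The 7 shown are the 200 bases just upstream of a start site inside a wide peak, free of annotated exons, taken from GRCh37 (hg19) and written 5′ to 3′ on the strand of the gene, with CG dinucleotides in capitals. CEBPB (chr20:48807167-48807366, plus strand, 32 CpGs), EGR1 (chr5:137800968-137801167, plus strand, 20 CpGs), KDM1A (chr1:23345736-23345935, plus strand, 15 CpGs) and MCM3 (chr6:52149680-52149879, minus strand, 12 CpGs) were under wide peaks in both lines.
CEBPB: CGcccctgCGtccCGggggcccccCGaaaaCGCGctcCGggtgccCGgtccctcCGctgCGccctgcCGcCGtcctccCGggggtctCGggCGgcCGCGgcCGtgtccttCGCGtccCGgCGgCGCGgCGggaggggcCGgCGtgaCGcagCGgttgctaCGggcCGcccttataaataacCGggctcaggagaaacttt
EGR1: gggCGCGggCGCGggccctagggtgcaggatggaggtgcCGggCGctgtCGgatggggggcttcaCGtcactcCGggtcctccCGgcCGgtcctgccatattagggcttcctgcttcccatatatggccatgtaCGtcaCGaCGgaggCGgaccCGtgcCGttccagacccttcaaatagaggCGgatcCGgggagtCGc
KDM1A: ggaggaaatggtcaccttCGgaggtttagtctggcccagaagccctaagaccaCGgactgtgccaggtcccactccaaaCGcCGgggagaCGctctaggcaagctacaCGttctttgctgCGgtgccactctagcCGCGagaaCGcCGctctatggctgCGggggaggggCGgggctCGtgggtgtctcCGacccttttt
MCM3: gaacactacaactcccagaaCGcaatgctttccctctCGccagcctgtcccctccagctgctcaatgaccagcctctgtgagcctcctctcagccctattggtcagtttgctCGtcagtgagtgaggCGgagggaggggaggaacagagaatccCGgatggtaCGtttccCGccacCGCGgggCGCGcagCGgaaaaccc
CEBPE (chr14:23589466-23589665, minus strand, 0 CpGs) was under a wide peak of RS4;11 cells, and FCER1G (chr1:161184824-161185023, plus strand, 6 CpGs) and CD33 (chr19:51728120-51728319, plus strand, 2 CpGs) were under wide peaks of THP-1 cells. No wide peak of the other line covered the center of any of these 3 peaks. The 7 are examples and do not show how CpG content goes with sharing between the lines. SMARCA4 (37 CpGs) and BAP1 (31 CpGs) were under wide RS4;11 peaks whose center no THP-1 peak covered. TET2 (7 CpGs) was under wide peaks in both lines.
CEBPE: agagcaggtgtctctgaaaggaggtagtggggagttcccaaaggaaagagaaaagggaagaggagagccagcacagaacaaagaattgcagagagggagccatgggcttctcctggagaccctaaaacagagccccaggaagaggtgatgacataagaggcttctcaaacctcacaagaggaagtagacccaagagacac
FCER1G: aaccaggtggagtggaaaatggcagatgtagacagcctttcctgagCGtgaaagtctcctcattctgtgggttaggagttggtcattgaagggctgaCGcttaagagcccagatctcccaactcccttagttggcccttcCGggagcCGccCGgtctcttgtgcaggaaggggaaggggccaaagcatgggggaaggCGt
CD33: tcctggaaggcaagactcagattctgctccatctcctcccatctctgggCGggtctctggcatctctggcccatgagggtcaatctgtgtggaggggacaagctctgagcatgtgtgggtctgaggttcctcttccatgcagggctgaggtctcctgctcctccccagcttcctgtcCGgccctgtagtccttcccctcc
CEBPB and EGR1 encode inducible transcription factors, KDM1A a lysine demethylase and MCM3 a subunit of the replicative helicase. CEBPE encodes a granulocyte transcription factor, FCER1G an Fc receptor chain and CD33 a myeloid surface receptor.

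The wide peaks formed the upper end of a continuous range of widths that ended abruptly. The median width of the wide peaks was 3462 bp in RS4;11 and 3443 bp in THP-1 cells, against 1391 and 1241 bp for all peaks. Their numbers per 250 bp fell from 882 at 3000 bp and above to 347 in the bin that starts at 4000 bp, 118 in the last bin below 4500 bp and 0 beyond it in RS4;11 cells. In THP-1 cells the same bins held 800, 245, 32 and 0 peaks, and the widest peaks measured 4478 and 4446 bp. H3K4me3 domains broader than this are not listed as single peaks in either line. The wide peaks covered 27.3% of all peak bases in RS4;11 and 22.4% in THP-1 cells. Just inside the threshold lay the peaks of MFN1, NUPL2 and APBA3 with MRPL54 in RS4;11 cells, all of 3000 bp, and of CREG1, TRIM4 (3000 bp) and COQ2 (3001 bp) in THP-1 cells. Just outside, 1 bp below 3000 bp, lay peaks at ERO1L, CCDC93 and an intron of PRKAG2 in RS4;11 and at RNF2, RPS14 and ZBTB43 in THP-1 cells.

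**Figure D1:**
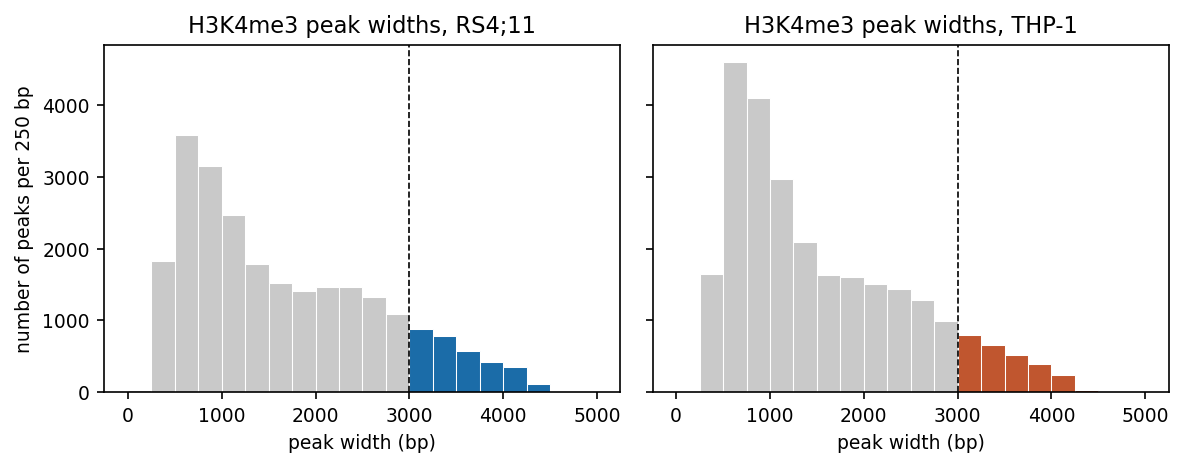
Number of H3K4me3 peaks per 250 bp of width (bp, linear axes) in RS4;11 and THP-1 cells; colored bars are the peaks of 3000 bp or more. The counts decline to 118 and 32 peaks in the last bin below 4500 bp and are 0 above in both lines.

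Few wide peaks had a close neighbour with which to form a broader domain. A second peak of the same line lay within 1000 bp of 73 of 3109 wide peaks in RS4;11 cells (2.35%, 1.87 to 2.94%) and of 51 of 2628 in THP-1 cells (1.94%, 1.48 to 2.54%). The shares were 2.53% and 3.52% for peaks of 1500 to under 3000 bp (middle peaks) and 3.01% and 5.55% for peaks under 1500 bp (narrow peaks). In THP-1 cells wide peaks thus had fewer close neighbours than middle peaks (difference -1.58 percentage points, 95% Newcombe interval -2.20 to -0.874). In RS4;11 cells the interval of this difference took in both signs (-0.182, -0.780 to 0.492). Once peaks less than 1000 bp apart were joined, 3198 and 2779 domains were 3000 bp or more, of which 111 and 107 reached 4500 bp. The broadest joined domains lay at ANKRD34A, LIX1L and POLR3GL in RS4;11 cells (chr1:145469293-145478944, 9652 bp) and at GNB2L1, a ribosomal subunit component, in THP-1 cells (chr5:180668150-180676740, 8591 bp); both were chosen after their values were seen.

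Width at a site was shared between the lines. For each peak, the peak of the other line that covered its center base was taken, a measure that neither the choice of members nor their own width fixes. Of the wide RS4;11 peaks, 1410 (45.4%, 43.6 to 47.1%) had a wide THP-1 peak over their center, against 8.95% of all RS4;11 peaks. Of the wide THP-1 peaks, 1411 (53.7%, 51.8 to 55.6%) had a wide RS4;11 peak there, against 9.92% of all THP-1 peaks. Middle peaks had a wide peak of the other line at 8.18% and 11.4% of centers, which is 37.2 (35.3 to 39.0) and 42.3 (40.3 to 44.3) percentage points below the wide peaks. Where the center was covered, the median width in the other line was 3149 bp (interquartile range 2615 to 3579) for wide RS4;11 peaks and 3267 bp (2860 to 3634) for wide THP-1 peaks. Only 80 wide RS4;11 peaks and 20 wide THP-1 peaks had a peak of the other line under 1500 bp over their center base. A short peak covers a given base less readily than a long one. These counts therefore do not include short peaks elsewhere under a wide peak.

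The share of peaks covered in the other line did not keep increasing with width. It went up with width to 85.4% (84.0 to 86.8%) of RS4;11 peaks of 2500 to under 3000 bp, then was lower for wide peaks, at 81.6%, 77.2% and 61.5% in the bins starting at 3000, 3500 and 4000 bp. The last bin was 23.9 percentage points below the bin at 2500 bp (interval of the difference -28.6 to -19.4). In THP-1 cells the share was 83.1% at 2500 bp and 82.3%, 77.1% and 70.0% in the 3 wide bins, the last -13.1 points from the bin at 2500 bp (-18.9 to -7.76). In both lines the widest peaks were thus less often covered in the other line than peaks just below the threshold. Among covered peaks the median width in the other line still grew with each bin, to 3528 and 3720 bp for peaks of 4000 bp or more. These shares move with the abrupt end of the widths near 4500 bp, and the part of that limit in the result was not tested.

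**Figure D2:**
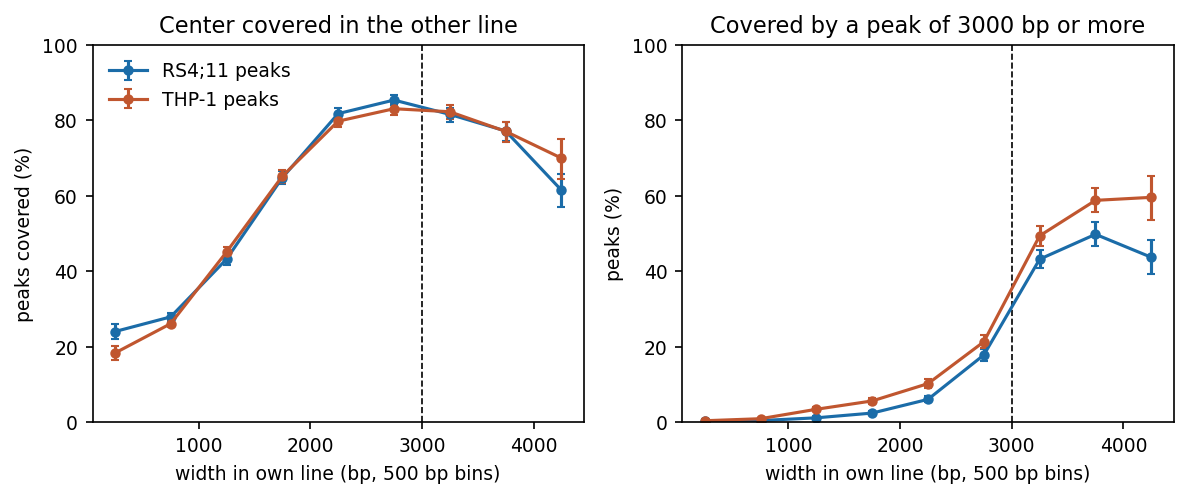
Share of H3K4me3 peaks (%) by width in their own line (500 bp bins) whose center a peak of the other line covers (left) or a peak of the other line of 3000 bp or more covers (right). Points are shares, bars 95% Wilson intervals over peaks and the dashed line marks 3000 bp; coverage peaks at 2500 to 3000 bp (85.4% and 83.1%), while cover by a wide peak reaches 43.7% and 59.6% in the last bin.

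The center of 708 wide RS4;11 peaks and 546 wide THP-1 peaks was not covered in the other line. A peak of the other line still overlapped 163 and 85 of these away from the center. For 432 (61.0%) of the 708 and 395 (72.3%) of the 546, no peak of the other line lay within 5000 bp of the peak. The 10 widest of them in RS4;11 cells included SF3B1, a core subunit of the spliceosome (4381 bp), ETF1, the translation termination factor (4419 bp), DDX5 with CCDC45, an RNA helicase gene (4439 bp), SFRS12, a splicing factor (4387 bp), YARS with S100PBP, a tRNA synthetase gene (4385 bp), and H2AFY, a histone variant (4366 bp). The others were C8orf45 with SNHG6 (4478 bp), PANK2 (4406 bp), CEP76 with PSMG2 (4391 bp) and MTRF1L (4366 bp). In THP-1 cells they included TOP2B, a type II topoisomerase (4300 bp), MYL6, a myosin light chain (4310 bp), MED13, a Mediator kinase module subunit (4290 bp), GABPA with ATP5J, an ETS factor and an ATP synthase subunit (4293 bp), ATG3 with SLC35A5, an autophagy enzyme (4265 bp), and FLI1, an ETS factor of blood cells (4294 bp). RNF146 (4380 bp), C1orf9 (4335 bp), HS2ST1 (4303 bp) and C15orf42 (4279 bp) completed the list. No THP-1 peak overlapped the SF3B1, ETF1 or DDX5 peak, nor did an RS4;11 peak overlap that of TOP2B, MED13 or MYL6. A missing entry in a peak list does not show that the mark is absent.

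At the genes with the widest peaks of both lines the borders were close. The peak over C2CD3 and PPME1 spanned chr11:73880022-73884372 (4351 bp) in RS4;11 and chr11:73880000-73884311 (4312 bp) in THP-1 cells. CDC45, a replication factor, was under 4226 bp (chr22:19464640-19468865) and 4195 bp (chr22:19464661-19468855), and GSK3A, a glycogen synthase kinase, under 4214 and 4223 bp. SUGT1 (4475 and 4214 bp), NSMAF (4441 and 4244 bp), NAA38 (4365 and 4248 bp), PTK2B (4211 and 4341 bp) and EEF1B2 with NDUFS1 (4204 and 4293 bp) followed. These 10 genes had the largest smaller width among genes with an exon under a wide peak in both lines.

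The 10 widest peaks of RS4;11 cells also held ELOVL6 (4461 bp), GLT8D1 with SPCS1 (4449 bp), CLK1 (4443 bp), CHRAC1 (4435 bp), ADAMTS6 (4430 bp) and BDH2 with NHEDC2 (4425 bp), for which the THP-1 peaks at the center measured 3442, 3980, 4166, 3623, 3748 and 2838 bp. ELOVL6 elongates fatty acids, CLK1 phosphorylates splicing factors and CHRAC1 belongs to a chromatin remodelling complex. In THP-1 cells DUSP10, a phosphatase of stress kinases, had the widest peak (4446 bp, and 4017 bp in RS4;11 cells), and KIAA0907 had 4302 bp (2934 bp in RS4;11 cells). Choosing the widest peaks of 1 line favours a narrower peak in the other.

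Most wide peaks lay on start sites and reached mainly downstream of the 5′ gene end. An annotated start site (TSS) of a protein-coding gene was inside 2439 of 3109 wide RS4;11 peaks (78.4%, 77.0 to 79.9%) and 2114 of 2627 wide THP-1 peaks on the chromosomes (80.5%, 78.9 to 81.9%). Middle peaks held a TSS in 55.9% and 59.4% and narrow peaks in 6.30% and 8.68%, shares that a longer interval raises by itself. With the TSSs of every annotated transcript, 94.8% and 97.2% of wide peaks held a start site. The peak center, which has no length, was within 500 bp of a coding TSS for 36.3% and 36.6% of wide peaks, a difference from middle peaks of -3.49 (-5.47 to -1.48) and -4.84 (-6.94 to -2.70) percentage points. With the TSSs of every annotated transcript the center was within 500 bp for 71.3% and 69.9% of wide peaks, and the difference from middle peaks was 4.21 percentage points (2.31 to 6.08) for RS4;11 and -1.96 points (-3.98 to 0.0143) for THP-1. Whether wide peaks were centered on start sites more or less often than middle peaks thus turned with the annotation in RS4;11 cells.

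Among peaks with exactly 1 coding TSS, wide peaks reached a median of 1110 bp upstream (interquartile range 798 to 1460) and 2386 bp downstream (2006 to 2745) in RS4;11 cells (n = 1869), and 1068 bp (772 to 1434) and 2368 bp (2002 to 2742) in THP-1 cells (n = 1612). Middle peaks reached 768 and 1496 bp in RS4;11 and 743 and 1461 bp in THP-1 cells. The longer arm was the downstream one in 88.9% (87.4 to 90.2%) and 88.8% (87.1 to 90.2%) of wide peaks, beside 88.2% and 87.7% of middle peaks and 63.9% and 58.9% of narrow peaks. The downstream arm held a median of 68.2% and 69.0% of the width of wide peaks and 66.0% and 66.4% of middle peaks. The asymmetry of wide peaks was therefore close to that of middle peaks, and both arms were longer. The TSS here is the 5′ end of the gene, so a peak on a start site farther in counts as reaching downstream. The arms were not measured from the start sites of other transcripts.

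**Figure D3:**
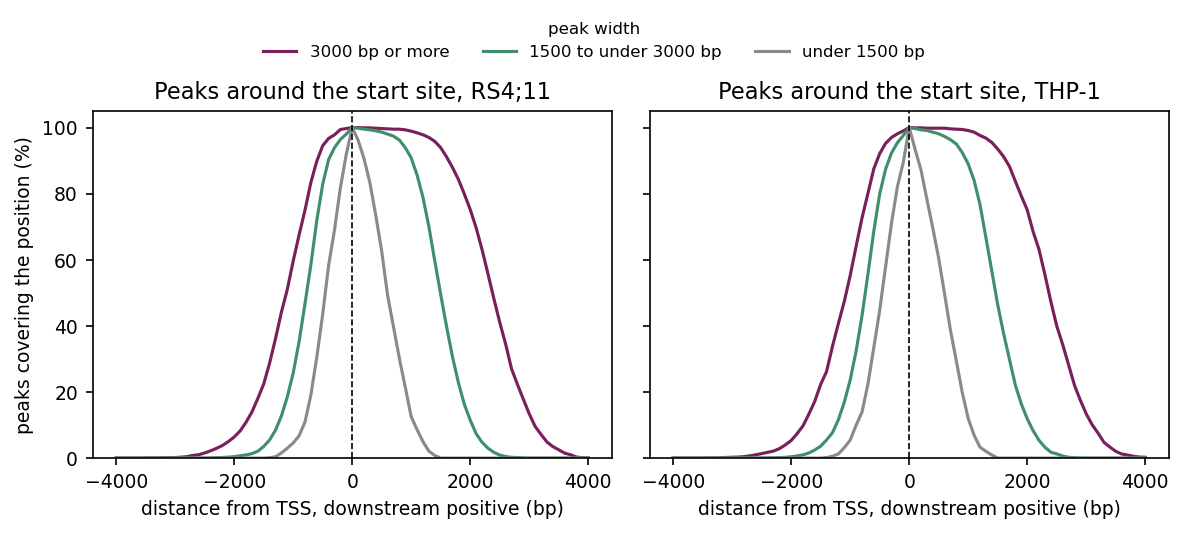
Share of H3K4me3 peaks with exactly 1 protein-coding TSS (%) that cover each position from 4000 bp upstream to 4000 bp downstream of that TSS, by peak width, in RS4;11 and THP-1 cells. All curves meet at the TSS, the 5′ gene end, where every such peak is present by construction. The wide peaks reach farthest downstream of it (median 2386 and 2368 bp).

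Bidirectional start sites made up a larger share of the start sites under wide peaks than under middle peaks. A coding TSS on the opposite strand within 1000 bp upstream of the TSS nearest to the center was present at 299 of 2439 wide RS4;11 peaks with a TSS (12.3%, 11.0 to 13.6%) and 264 of 2114 wide THP-1 peaks (12.5%, 11.1 to 14.0%). Middle peaks with a TSS had such a neighbour in 6.09% and 5.79%, a difference of 6.17 (4.73 to 7.68) and 6.70 (5.19 to 8.30) percentage points. The 1000 bp searched do not depend on width, but a longer interval holds more TSSs, with 2 or more in 570 wide and 622 middle RS4;11 peaks. Among peaks whose center lay within 500 bp of a TSS, 22.3% and 22.9% of wide and 7.55% and 6.88% of middle peaks had a divergent TSS. The differences had intervals of 12.3 to 17.5 and 13.3 to 18.9 points. This second measure was added after seeing the data, and it leaves out peaks whose center lies farther from a TSS. In RS4;11 cells it kept 1128 of 3109 wide and 3284 of 8258 middle peaks. A wide peak centered near a TSS covers more upstream sequence than a middle peak centered alike. The measure is therefore not free of width, and the part of width in the difference was not tested. In the deposited annotation, 594 wide RS4;11 peaks (19.1%) and 543 wide THP-1 peaks (20.7%) touched exons of 2 or more genes, as at GLT8D1 and SPCS1 or C2CD3 and PPME1. In such a peak the width cannot be assigned to either gene. Many wide peaks are shared by the lines, so the like shares in RS4;11 and THP-1 do not come from independent sites.

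Most wide peaks had CpG-rich sequence at their start site. A 1000 bp window was called CpG-rich where its GC content exceeded 50% and its CpG observed to expected ratio exceeded 0.6. At the center, 66.0% (64.4 to 67.7%) of wide RS4;11 peaks and 66.0% (64.1 to 67.8%) of wide THP-1 peaks were CpG-rich, against 58.4% and 64.5% of middle and 10.6% and 18.4% of narrow peaks. The margin over middle peaks was 7.67 percentage points (5.68 to 9.63) in RS4;11 cells. In THP-1 cells the interval of the margin took in both signs (1.46, -0.633 to 3.52). In the window at the TSS, among peaks with a TSS, the CpG-rich share was 87.5% and 86.6% for wide, 83.9% and 83.8% for middle and 59.9% and 66.9% for narrow peaks. The margin of wide over middle peaks there was 3.59 (1.87 to 5.26) and 2.82 (1.00 to 4.55) percentage points. Over the whole interval only 37.6% and 37.0% of wide peaks were CpG-rich, so wide peaks ran beyond the CpG-rich sequence.

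**Figure D4:**
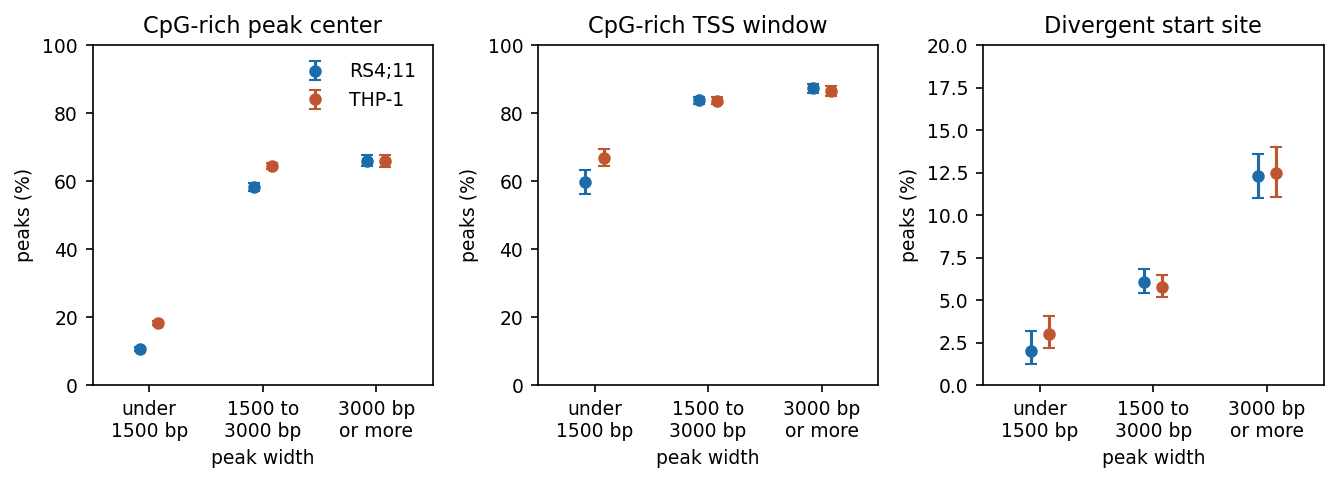
Share of H3K4me3 peaks (%) in 3 width classes with a CpG-rich 1000 bp window at the peak center (left), a CpG-rich window at the TSS among peaks with a TSS (middle), and a divergent coding TSS within 1000 bp upstream among peaks with a TSS (right; axis to 20%). Points are shares and bars 95% Wilson intervals over peaks; wide peaks reach 66.0% at the center, 87.5% and 86.6% at the TSS, and 12.3% and 12.5% for divergent start sites.

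Wide peaks at start sites that were not CpG-rich (CpG-poor below) were less often shared between the lines. Of 306 such RS4;11 peaks, 75.2% (70.0 to 79.7%) were covered at the center in THP-1 cells and 41.8% by a wide peak, against 82.1% and 50.8% of 2133 wide peaks at CpG-rich start sites. The differences were -6.97 (-12.3 to -2.16) and -8.94 (-14.7 to -2.96) percentage points. Of 283 such THP-1 peaks, 73.1% (67.7 to 78.0%) were covered in RS4;11 and 46.6% by a wide peak, against 84.2% and 58.8% of 1831, differences of -11.0 (-16.7 to -5.88) and -12.2 (-18.3 to -5.93) points. Middle peaks showed a gap in coverage as well (-8.04, -10.8 to -5.61, and -5.99, -9.14 to -3.07), so it was not particular to wide peaks. This split was made after earlier values were seen. A CpG-poor window could fail either limit, so some were not poor in CpG, as at MTO1 in RS4;11 cells (GC 49.6%, ratio 1.04). The median ratio at the CpG-poor start sites of wide peaks was 0.508 in RS4;11 and 0.528 in THP-1 cells, beside 0.831 and 0.817 at CpG-rich ones. The wide peaks with the lowest CpG ratio at the center included IL1B (chr2:113591464-113594966, ratio 0.0384), the interleukin 1 beta gene, in RS4;11 cells. In THP-1 cells they were led by CCR2, a chemokine receptor of monocytes (chr3:46395002-46398785, 0.0257), and MNDA, a myeloid nuclear antigen (chr1:158800373-158804392, 0.0520). No peak of the other line covered the center of these 3 peaks, which were chosen after their values were seen.

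WDR5 peaks were rare at wide H3K4me3 peaks. A WDR5 peak of the same line overlapped the central 1000 bp of 4 of 3109 wide RS4;11 peaks (0.129%, 0.05 to 0.330%) and 2 of 2628 wide THP-1 peaks (0.0761%, 0.0209 to 0.277%). The shares were 0.278% and 0.0827% for middle and 0.148% and 0.110% for narrow peaks. Wide minus narrow was -0.0193 (-0.134 to 0.189) and -0.0340 (-0.120 to 0.171) percentage points, and wide minus middle was -0.150 (-0.309 to 0.0723) and -0.00664 (-0.111 to 0.199), so a difference was not detectable with 703 and 225 WDR5 peaks. Over the whole interval, 10 wide RS4;11 peaks and 2 wide THP-1 peaks overlapped a WDR5 peak.

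The 4 RS4;11 peaks with WDR5 at the center were at HIST1H1C, a linker histone gene (chr6:26053855-26057996, 4142 bp), MRPL41 with PNPLA7 (chr9:140443839-140447263, 3425 bp), ASB7 with LINS1 (chr15:101140859-101144214, 3356 bp) and MRP63 with SKA3 (chr13:21749376-21752447, 3072 bp). In THP-1 cells they were at RPL35A with IQCG (chr3:197675741-197679624, 3884 bp) and at RNF122 (3097 bp). MRPL41, MRP63 and RPL35A encode ribosomal proteins of mitochondria or cytoplasm. In the other line the H3K4me3 peak at the center was wide at 5 of these 6 sites and 702 bp at MRPL41. WDR5 also touched the edge of the wide peak at MCM3 in RS4;11 cells, 1855 bp from its center.

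The files pair each peak with every transcript within 20 kb, and by these pairs 3005 of 18494 genes had a wide peak in both lines, 2364 in RS4;11 only, 1709 in THP-1 only, and 3563 had peaks under 1500 bp only. Because a peak can be paired with several genes, genes were then grouped by the widest peak that touched one of their exons. Of 11142 genes with such a peak in RS4;11 cells, 3440 (30.9%) had a wide one, and of 12304 in THP-1 cells, 3032 (24.6%). Of 13760 genes with an exon peak in either line, 1739 had a wide peak in both, 1701 in RS4;11 only, 1293 in THP-1 only, and 2166 had peaks under 1500 bp only. For 529 (31.1%) of the 1701 and 527 (40.8%) of the 1293 genes, the peak in the other line was 2500 to under 3000 bp, just below the threshold. For 575 (33.8%) and 427 (33.0%) no peak of the other line touched an exon. Of these genes, 455 of the 575 and 283 of the 427 were still paired with a peak of the other line that touched no exon of theirs, and 120 and 144 were paired with none. In the gene lists below, wide in 1 line only means at an exon, and a paired peak that touches no exon may belong to a neighbouring gene. A peak that touches an exon may also lie on the start site of a neighbouring gene.

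Genes with wide peaks differed little in length from genes with narrow peaks only. The median gene length was 35920 bp (interquartile range 14208 to 76226) for genes wide in both lines, 40684 and 31574 bp for genes wide in RS4;11 or THP-1 only, and 31540 bp (10947 to 89502) for genes with peaks under 1500 bp only. Protein-coding transcripts (NM identifiers) were listed for 1670 of the 1739 genes wide in both and 1981 of the 2166 genes (91.5%, 90.2 to 92.6%) with narrow peaks only. A WDR5 peak of RS4;11 cells was paired with 5.12% (4.18 to 6.26%) of the genes wide in both and 3.19% (2.52 to 4.01%) of those with narrow peaks only. Genes whose widest peak was a middle one stood at 4.85% (4.37 to 5.39%), so the gap to narrow peaks was not particular to wide ones. In THP-1 cells the shares for wide in both and narrow only were 1.32% (0.883 to 1.98%) and 1.43% (1.01 to 2.02%), with overlapping intervals. Pairing reaches 20 kb beyond a transcript and so counts WDR5 peaks away from the wide peak.

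Most ribosomal protein genes with an exon peak had a wide one. Of 64 ribosomal protein genes with an exon peak in RS4;11 cells, 43 (67.2%) had a wide one, and of 57 in THP-1 cells 38 (66.7%), with medians of 3237 and 3273 bp beside 2544 and 2340 bp over all genes. Wide in both lines were 27, among them RPL12 (4221 and 3996 bp), RPL21 (4190 and 4084 bp), RPL15 (4096 and 4131 bp), RPL10A (4030 and 4176 bp) and RPL5 (3976 and 4161 bp), all proteins of the large subunit. None of the 80 ribosomal protein genes had peaks under 1500 bp only. RPL4 (4345 bp) and RPS19 (4027 bp) were wide in RS4;11 cells with no exon peak in THP-1 cells, and RPS3 (4234 bp), RPL28 (4134 bp) and RPL24 (4130 bp) the reverse. Without touching an exon, wide peaks of the other line were still paired with RPS19 (3002 bp), RPL28 (3395 bp) and RPL24 (3739 bp). Ribosomal proteins are made in every cell, and peaks broader than about 4500 bp are not listed.

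Of 25 histone genes with an exon peak in RS4;11 cells 15 had a wide one, and of 32 in THP-1 cells 18, with medians of 3311 and 3144 bp. Over all genes the medians were 2544 and 2340 bp. Both histone shares had intervals (RS4;11: 40.7 to 76.6%; THP-1: 39.3 to 71.8%) above the 30.9% and 24.6% of all genes. HIST1H2BB and HIST1H3C, core histone genes under 1 peak, measured 4152 and 3952 bp, HIST1H1C 4142 and 3677 bp, and H3F3B, a gene of the replacement histone H3.3, 3892 and 3743 bp. H2AFY (4366 bp) was wide in RS4;11 cells only and H2AFX (3812 bp) in THP-1 cells only, each with no exon peak in the other line but with a paired peak there of 3888 and 3549 bp. Several clustered histone genes share a peak, so these counts are not of independent sites, while the intervals treat each gene as separate. Some histone genes are also near-identical copies, and how evenly uniquely aligned reads cover them was not tested.

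The immediate early genes, which respond within minutes to growth factors, had wide peaks at 7 of 12 genes with an exon peak in RS4;11 and 5 of 10 in THP-1 cells. The interval of the RS4;11 share, 32.0 to 80.7%, began just above the 30.9% of all genes. That of the THP-1 share, 23.7 to 76.3%, held the 24.6% of all genes. ATF3 (3588 and 3821 bp), FOSB (3552 and 3369 bp) and EGR1 (3109 and 3389 bp) were wide in both. JUND (3977 bp), IER5 (3590 bp), FOS (3353 bp) and EGR3 (3091 bp) were wide in RS4;11 cells only, and DUSP1 (3136 bp) and BTG2 (3013 bp) in THP-1 cells only. JUND had 2125 bp in THP-1 cells, and the others had no exon peak in the other line. FOS and EGR3 were paired in THP-1 cells with wide peaks that touched none of their exons (3347 and 3051 bp).

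Genes of the H3K4 methylation machinery were themselves under wide peaks at 9 of 20 genes with an exon peak in RS4;11 and 5 of 20 in THP-1 cells, with medians of 2872 and 2606 bp. The intervals of these shares, 25.8 to 65.8% and 11.2 to 46.9%, hold those of all genes, 30.9% and 24.6%. Among the writers and their subunits, MLL4 (4047 bp), PAXIP1 (3971 bp), PSIP1 (3625 bp), WDR5 (3300 bp), MLL2 (3273 bp) and SETD1A (3091 bp) were wide in RS4;11 cells. In THP-1 cells these measured 1403 bp for MLL4, 2673 bp for PSIP1, 1769 bp for WDR5, 2538 bp for MLL2 and 2744 bp for SETD1A, and PAXIP1 had no exon peak. WDR82, the subunit of the SET1 complexes, was wide in both (3890 and 3741 bp). Of the demethylases, KDM5C (4082 and 3352 bp) and KDM1A (3216 and 3515 bp) were wide in both, and KDM5B (4093 bp, against 2926 bp) and KDM5A (3919 bp, no exon peak in RS4;11 cells) in THP-1 cells only. KDM6A, an H3K27 demethylase found in MLL complexes, had no exon peak in either line, and SETD1B (2984 bp) and CXXC1 (2836 bp) were below the threshold at their exons in THP-1 cells but paired with peaks of 3542 and 3310 bp.

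Cell cycle genes had wide peaks at 3 of 16 genes with an exon peak in RS4;11 and 9 of 15 in THP-1 cells, with medians of 2744 and 3471 bp. These shares were 18.8% (6.59 to 43.0%) and 60.0% (35.7 to 80.2%), beside 30.9% and 24.6% of all genes. The RS4;11 interval holds the share of all genes, and the THP-1 interval lies above it. MCM3 (4237 and 3860 bp), MAX, the partner of MYC (3472 and 3395 bp), and CDK2 (3336 and 3671 bp) were wide in both. In both lines the peak at CDK2 held the start site of a neighbouring gene, RAB5B, so its width cannot be assigned to CDK2. In THP-1 cells MYCL1 (4018 bp), PCNA, the replication clamp (3982 bp), E2F2 (3783 bp), CCNA2 (3530 bp), CCND1 (3480 bp) and E2F3 (3471 bp) were wide as well. The RS4;11 peaks measured 1754 bp at MYCL1, 2630 bp at PCNA, 2849 bp at CCNA2 and 1770 bp at CCND1, and E2F2 and E2F3 had no exon peak.

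Tumor suppressor genes had wide peaks at 8 of 18 in RS4;11 and 5 of 16 in THP-1 cells, shares of 44.4% (24.6 to 66.3%) and 31.2% (14.2 to 55.6%) whose intervals hold those of all genes. TET2, which oxidizes methylated cytosine (3864 and 4257 bp), and EZH2, the H3K27 methyltransferase (4111 and 3002 bp), were wide in both. KLF6 (4244 bp), PHF6 (4166 bp), BAP1 (4100 bp), VHL (3720 bp), STK11 (3313 bp) and SMARCA4 (3273 bp) were wide in RS4;11 cells only. In THP-1 cells VHL had 2903 bp and STK11 2319 bp, and KLF6, PHF6, BAP1 and SMARCA4 had no exon peak. The BAP1 peak also held the start site of PHF7, so its width cannot be assigned to either gene. SMAD4 (4084 bp), RB1 (3582 bp) and CDKN1A (3277 bp) were wide in THP-1 cells only, with no exon peak in RS4;11 cells.

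Genes of the B lineage were under wide peaks at 4 of 14 genes with an exon peak in RS4;11 and 2 of 20 in THP-1 cells, shares of 28.6% (11.7 to 54.6%) and 10.0% (2.79 to 30.1%) whose intervals hold those of all genes. Among them, BTK, a kinase of B cell receptor signalling, had 4071 bp in RS4;11 and 3105 bp in THP-1 cells, BACH2 3820 and 2691 bp, and POU2AF1, a B cell coactivator, 3337 bp and no peak in THP-1 cells. The THP-1 peak at BTK held the start site of a neighbouring gene, TIMM8A, and the RS4;11 peak at its center measured 2778 bp. The 2 widths given for BTK are therefore of different sites, and the THP-1 width cannot be assigned to BTK. CD79B (2921 bp), CD79A (2816 bp) and CD22 (2769 bp), parts or regulators of the B cell receptor, lay just under the threshold in RS4;11 cells. PAX5, IKZF1 and LEF1 had no paired peak in RS4;11 cells, and EBF1 and TCF3 were paired with a peak that touched no exon of theirs. PAX5 had a wide peak in THP-1 cells (4037 bp), so for this defining B cell factor the peak lists go against the labelled lineages. A missing entry does not show that the mark is absent, and domains broader than about 4500 bp are not listed as single peaks.

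Monocyte and granulocyte genes were under wide peaks at 3 of 17 genes in RS4;11 and 6 of 22 in THP-1 cells, shares of 17.6% (6.19 to 41.0%) and 27.3% (13.2 to 48.2%) whose intervals hold those of all genes. In THP-1 cells these were FCER1G (4125 bp, against 539 bp in RS4;11 cells), CEBPB (3666 and 3981 bp), TLR4, the endotoxin receptor (3594 and 1667 bp), FCGR2A, an Fc receptor (3590 and 2358 bp), ELANE, neutrophil elastase (3581 bp and no exon peak), and CD33 (3357 and 1075 bp). CEBPE (3125 bp) was wide in RS4;11 and had no exon peak in THP-1 cells. In THP-1 cells CEBPE, IRF8, CEBPA and MPO were paired only with peaks that touched none of their exons, and these peaks were wide for CEBPE (3833 bp) and IRF8 (3358 bp).

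Markers of other lineages had few exon peaks to compare. Of T lineage genes 1 of 11 (ZAP70, 3650 bp) was wide in RS4;11 and 0 of 5 in THP-1 cells, and of erythroid genes 0 of 2 in each. Neural genes were wide at 1 of 4 and 2 of 15, namely NEUROG2 (3152 and 3559 bp) and, in THP-1 cells, NKX2-2 (3091 bp). The intervals of the T lineage and neural shares, the widest of them 4.56 to 69.9%, hold those of all genes. Of 22 targets of MLL fusion proteins, 13.6% had an exon peak in RS4;11 and 40.9% in THP-1 cells, beside 60.2% and 66.5% of all genes. Of those with an exon peak, 1 of 3 was wide in RS4;11 cells, LMO2 (4150 bp), and 1 of 9 in THP-1 cells. The intervals of these shares, 6.15 to 79.2% and 1.99 to 43.5%, hold those of all genes, 30.9% and 24.6%. No exon peak in either line was listed for 11 of the 22. Such a gap does not show that the mark is absent, because domains broader than about 4500 bp are not listed as single peaks. The zinc finger genes named ZNF, with 81 of 380 (21.3%) and 61 of 400 (15.2%) wide, lay below the shares over all genes, while microRNA genes had 16 of 52 and 12 of 56 and olfactory receptor genes 0 of 2 and 0 of 1. The intervals of the microRNA shares, 19.9 to 44.3% and 12.7 to 33.8%, hold those of all genes. The olfactory receptor counts, like the erythroid ones, are too small to set beside the rest.

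**Figure D5:**
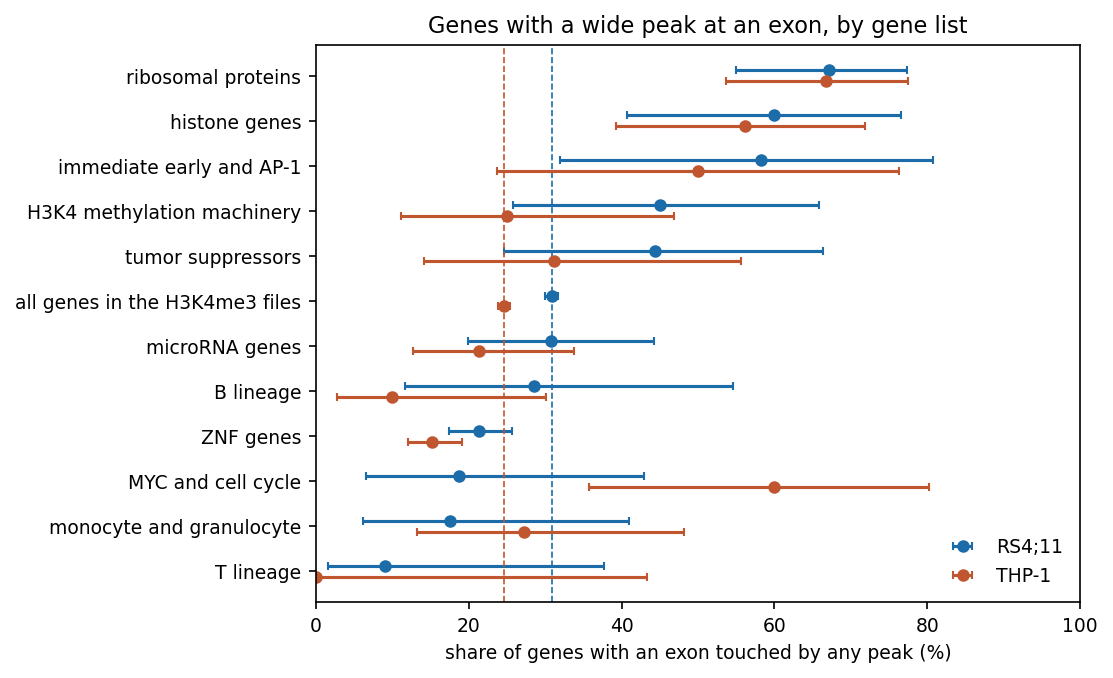
Share of genes with an exon touched by any H3K4me3 peak (%) that had a peak of 3000 bp or more, by gene list and line, for lists with 5 or more such genes in both lines. Points are shares, bars 95% Wilson intervals over genes and dashed lines the shares over all genes (30.9% in RS4;11 and 24.6% in THP-1 cells); ribosomal protein genes stand at 67.2% and 66.7%.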

How the data were processed

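The members (H3K4me3 peaks of 3000 bp or more) and the gene lists were chosen with earlier results of these data known. According to the paper, chromatin was sonicated for WDR5 and cut with micrococcal nuclease for H3K4me3; the labels describe sonicated nuclei for all 4 samples. The authors aligned reads to hg19 with Eland (at most 2 mismatches, unique alignments) and called peaks with MACS at default settings. The MACS version, the control sample and any limit on peak width are not given in the sources used here. The submitters' processing notes name CASAVA 1.7 and 1.8.2. The deposited files list each peak once for every transcript it was joined to, with the authors' yes or no flags for exon, intron and the 20 kb upstream or downstream. They hold no other value, and only peaks within 20 kb of a transcript are listed.

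The 65514 lines of RS4;11 H3K4me3 and 70371 of THP-1 were reduced to distinct intervals with Python 3.11.15, numpy 2.4.6 and pandas 2.3.3. Intervals had both end bases counted and were checked against GRCh37 chromosome lengths. Start sites were the 5′ gene ends of protein-coding genes in GENCODE release 44 mapped to GRCh37; the 37 and 35 peaks off chromosomes 1 to 22, X and Y (0 and 1 of them wide) stayed out of the counts of start sites and of the sequence measures. GC and CpG values were read with pysam 0.24.0. Gene lengths came from a RefSeq table, used for length only, that matched at least 97.1% of each exon-based gene class. Shares have 95% Wilson intervals and differences 95% Newcombe intervals. No p-value was computed, because each combination had 1 sample and peaks are not replicates. The computations were tested on simulated intervals.

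Named genes were the 10 widest peaks of each line, the 10 genes with the largest smaller width, the 10 widest peaks not covered in the other line, the 3 peaks on each side of the threshold, wide peaks with WDR5 at the center, and list members with a wide exon peak, up to 12 per list. Other names are said to be chosen after their values were seen. Alternatives were other thresholds, windows, overlaps, gene links and joined peaks. Some members of these lists are not reported here.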

Additional observations from a re-analysis of the deposited data

How the results depend on the processing

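No paired analysis was possible because each antibody and line had 1 sample, and for the same reason no replicate could be left out. With a threshold of 2500 bp the wide peaks numbered 5523 (22.8%) in RS4;11 and 4893 (18.4%) in THP-1, and with 3500 bp 1448 (5.98%) and 1176 (4.43%). After joining peaks less than 1000 bp apart the shares were 13.4% and 10.7%. A wide peak of the other line at the center was found at 56.4% and 63.6% of wide peaks with 2500 bp, 29.8% and 36.6% with 3500 bp, 34.2% and 31.2% for the widest 5% of each line, and 58.7% and 67.8% among peaks with a covered center, a setting added after seeing the data. A divergent start site was found at 22.3% and 22.9% of wide peaks centered within 500 bp of a start site, a measure also added later. A start site was inside 94.8% and 97.2% with all transcripts and 75.9% and 77.5% with 2500 bp. The CpG-rich share was 61.2% and 61.0% in 500 bp windows, 37.6% and 37.0% over whole peaks, 79.1% and 78.5% at the nearest start site and 68.8% and 68.9% with 2500 bp. A neighbour within 2000 bp was present at 6.40% and 6.01%. Genes wide in both lines numbered 1739 by exons, 1831 by start sites inside the peak, 6060 with 2500 bp and 995 with 3500 bp, and genes with peaks under 1500 bp only 2166 by exons and 1651 by start sites. The other 34 values, among them all those of WDR5, stayed within the main interval or within 1.5 times the main count. The lower or higher threshold moves these values by its own construction. Without heights or reads, strength could not be weighed, and with 4 and 2 WDR5 peaks at the center only large differences could be seen.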
